A study of Mus musculus with 8 samples.

Results

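Genes of the immunoproteasome and of the peptide loading complex were examined in mouse bone marrow-derived mesenchymal stem cells that lack the tumour suppressor p53. The set holds 10 genes of the 23503 in the tables, picked by symbol with no cut on a measured value, though with earlier results of these data known, and they account for 12 of the 30769 transcript entries. The cells were 4 single clones, numbered 2, 4, 8 and 12, all carrying the p53 knockout and kept below passage 20. Each clone was transduced with a retrovirus expressing luciferase (Luc), the control, or with one expressing the cDNA of cFos, a component of the AP-1 transcription factor, and no further treatment was given. This gave 4 Luc and 4 cFos libraries of polyadenylated RNA, 1 of each per clone, named below as Luc 2 or cFos 2 for those of clone 2. No clone and virus had a repeat library. The spread between clonal lines in the errors below therefore cannot be told apart from that between cultures or library preparations. The promoter that drives the transduced cDNA is not given in the sources used here. Levels are in FPKM, the fragments of a transcript divided by its length and by the fragments mapped in that library, which allows genes to be compared per length.

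Proteasomes cut cell proteins into peptides in a barrel-shaped core with catalytic subunits that come in exchangeable pairs. In the constitutive core these are Psmb6 (beta1), Psmb7 (beta2) and Psmb5 (beta5). In the immunoproteasome, which interferons induce and which blood cells carry without induction, Psmb9 (beta1i, LMP2), Psmb10 (beta2i, MECL-1) and Psmb8 (beta5i, LMP7) take their places, and the cut peptides fit class I histocompatibility molecules more often. Psme1 encodes the alpha subunit of the activator ring PA28, which docks on the core. Tap1 and Tap2 form the transporter that carries peptides into the endoplasmic reticulum, and Tapbp encodes tapasin, which bridges the transporter to class I molecules and helps load them.

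Aligned sequence on annotated transcripts amounted to between 6.93 and 9.14 gigabases per library, and all 10 genes passed the filter of at least 1 FPKM in at least 4 of 8 libraries, with 11162 genes tested in all. The transduced gene Fos was higher in the cFos library of each clone, at 76.2, 41.1, 302 and 43.5 FPKM in Luc 2, 4, 8 and 12 and at 589, 675, 1019 and 505 in the cFos libraries. Of the stromal markers, Col1a1 lay between 831 and 2401 FPKM, and Pdgfrb, at 86.8 ± 16.2 FPKM in Luc and 147 ± 28.6 in cFos, rose (limma adjusted p = 0.0442). The call of Pdgfrb ended without Luc 2, Luc 8, Luc 12, cFos 2, cFos 4 or cFos 8, with limma adjusted p up to 0.129. The surface markers Eng and Nt5e reached at most 2.12 and 7.94 FPKM, and Thy1 ranged from 0.0916 to 23.8. Of the leukocyte markers, 11 were in the tables and 3 reached 1 FPKM anywhere. Their summed level was 4.07 to 5.73 FPKM in Luc and 2.20 to 5.18 in cFos. Ptprc (CD45) reached at most 0.0718 FPKM and was listed at 0 in 2 libraries. Cd3e and Adgre1 were each listed at 0 in 7 of 8. The 3 that reached 1 FPKM were Cd14, Cd74 and Lyz2. Cd74, the class II invariant chain, was at 2.26 ± 0.843 FPKM in Luc and 0.978 ± 0.923 in cFos, below Luc in each of the 4 clones (limma adjusted p = 0.215). Lyz2, lysozyme, lay between 0.0542 and 1.45 FPKM in Luc and was at most at 0.165 in cFos, where it was listed at 0 in 1 library. Cd14 was at 1.63 ± 0.759 and 1.68 ± 0.425 FPKM. The part of these cells in the results below was not tested. No marker of endothelial or epithelial cells reached 1 FPKM. In bulk RNA, fewer cells that express a gene and less RNA of it per cell cannot be told apart.

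Psmb9, Tap1, Psmb8 and Tap2 are neighbours in the class II region of the histocompatibility complex, and their placing and start-site sequence are given first because Psmb9 and Tap1 share a start region. In the deposited tables (mm9, counted from 1) Psmb9 lies at chromosome 17, 34319044 to 34324275, Tap1 at 34324501 to 34334170, Psmb8 at 34335140 to 34338399 and Tap2 at 34341424 to 34353266, a span of 34223 bases. Tapbp lies apart from them on the same chromosome, at 34056423 to 34066235. Psmb10 is on chromosome 8 (108459628 to 108462292), Psmb5 and Psme1 on chromosome 14 (55232957 to 55236832 and 56197331 to 56200364), Psmb6 on chromosome 11 (70338859 to 70341360) and Psmb7 on chromosome 2 (38443566 to 38499426). Psmb9 and Tap1 are read in opposite directions from start sites with 225 bases between them.

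Promoter windows came from RefSeq (GRCm38.p6, 250 bases before to 50 after the start site) for 8 of the 10 genes, all but Psmb7 and Tap2. They were searched on both strands for the letters of the interferon-gamma activated site GAS (TTCNNNGAA), the interferon-stimulated response element ISRE (GAAA, any 2 bases, then GAAA), the AP-1 site (TGANTCA), the CRE (TGACGTCA), the core of the antioxidant response element ARE (TGACNNNGC), which shares its first letters with the CRE, and the GC box (GGGCGG). The stretch between the Psmb9 and Tap1 start sites held 1 GC box and none of the other 5. It is shown whole, on the Tap1 strand, because both genes start from it, with the GC box in capitals (read on the other strand). The other stretches show, in capitals, the single match to GAS in Psmb8, to ISRE in Psme1 and to the ARE core in Psmb5 and Psmb6. The ISRE match of Psme1 is also read on the other strand.
Psmb9 to Tap1, chr17:34187331-34187555, plus strand: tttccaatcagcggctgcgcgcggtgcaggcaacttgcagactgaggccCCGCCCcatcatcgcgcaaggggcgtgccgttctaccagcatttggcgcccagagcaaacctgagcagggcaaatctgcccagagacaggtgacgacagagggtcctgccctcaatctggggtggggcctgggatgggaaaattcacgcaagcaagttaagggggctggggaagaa
Psmb8, chr17:34198088-34198117, plus strand: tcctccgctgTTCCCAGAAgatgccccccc
Psme1, chr14:55578493-55578522, plus strand: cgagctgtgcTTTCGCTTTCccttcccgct
Psmb5, chr14:54618023-54618052, minus strand: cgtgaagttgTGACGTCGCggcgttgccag
Psmb6, chr11:70525338-70525367, plus strand: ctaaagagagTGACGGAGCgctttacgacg
GAS letters were in 8.3% of all 32851 windows, ISRE letters in 3.44%, AP-1 letters in 7.81%, CRE letters in 1.79%, ARE core letters in 12.4% and the GC box in 35.7%. The ISRE letters of Psme1 begin 9 bases after its start site and the GAS letters of Psmb8 at -97. AP-1 letters were found in 1 of the 8 windows, that of Psmb5, 41 bases after its start site, and CRE letters in none. The Psmb5 match reads TGAATCA, with A in the middle position, where the search allowed any base. A match describes letters and is not a measured binding site.

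The question put to the data was how these genes differ between cFos and Luc. Of the 10 genes, 6 fell in cFos, none rose and 4 did not pass (limma on log2 of FPKM plus 0.5, adjusted over all genes tested). Over all genes 2.62% were called lower and 2.92% higher. At an unadjusted p under 0.05 no member was higher either, against 1011 of all 11162 genes. The 6 were the immunosubunits Psmb8, Psmb9 and Psmb10, the activator subunit Psme1, the transporter subunit Tap1 and tapasin. The count was 2 without Luc 4, cFos 2, cFos 4 or cFos 12, 3 without Luc 2 or cFos 8, 5 without Luc 12 and 6 without Luc 8. When low genes were not filtered out it was 3. The same 6 genes fell with the clone as a block, where 4.28% of all genes were called lower and 4.51% higher. Their cFos libraries all lay below all their Luc libraries, which was so for 7.8% of all genes, and they were lower in cFos in each of the 4 clones, which was so for 20.9%. The median log2 difference over the 10 genes was -0.83, against -0.06 over all tested genes.

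**Figure D1:**
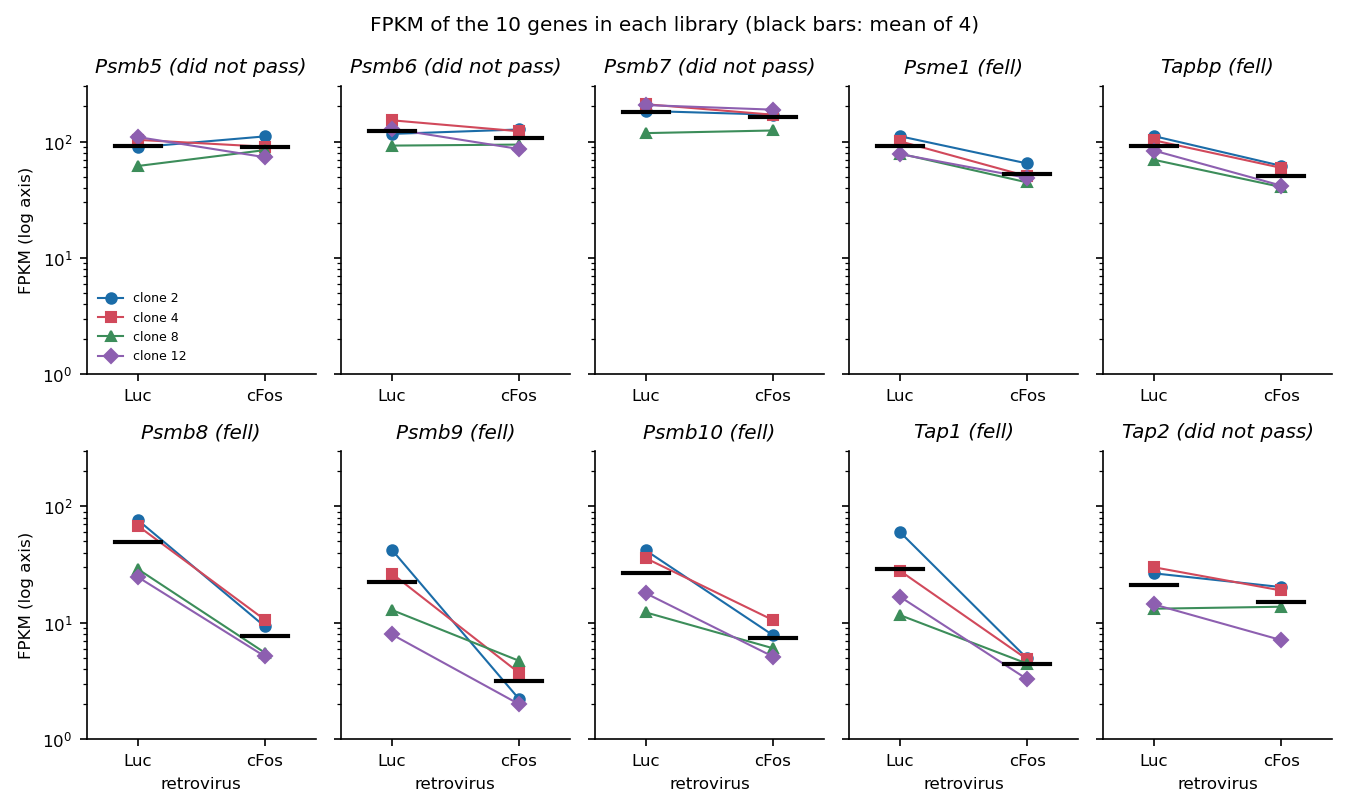
FPKM on a log axis of the 10 genes in each library, with a line joining the Luc and cFos libraries of a clone and black bars at the mean of 4 libraries. All lines of Psmb8, Psmb9, Psmb10, Tap1, Psme1 and Tapbp run down, while those of Psmb5, Psmb6, Psmb7 and Tap2 run in both directions.

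The immunosubunits showed the widest gaps between the arms among the catalytic subunits. Psmb8, the chymotrypsin-like immunosubunit, was at 76.5, 68.2, 29.0 and 24.7 FPKM in Luc 2, 4, 8 and 12 and at 9.29, 10.6, 5.53 and 5.14 in the cFos libraries. The lowest Luc library lay above the highest cFos library by more than the whole range of the cFos arm. Its mean fell from 49.6 ± 26.6 to 7.64 ± 2.72 FPKM (SD, n = 4), or -2.51 on the log2 scale with SE 0.40 (limma adjusted p = 0.00910). Within clones the Luc level was 8.24, 6.43, 5.24 and 4.81 times the cFos level in clones 2, 4, 8 and 12. Psmb8 kept its call without each of the 8 libraries in turn, with adjusted p from 0.00692 to 0.0309.

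Psmb9, the caspase-like site's replacement that shares its start region with Tap1, was at 42.4, 26.5, 12.9 and 7.94 FPKM in Luc 2, 4, 8 and 12 and at 2.22, 3.72, 4.71 and 1.999 in the cFos libraries. Clone 2 was highest of the Luc libraries and near the lowest of the cFos libraries. The mean fell from 22.4 ± 15.5 to 3.16 ± 1.28 FPKM, or -2.44 on the log2 scale with SE 0.48 (limma adjusted p = 0.0220). The Luc level was 19.1 times the cFos level in clone 2 and 2.73 times in clone 8, the clones at the ends of the range. The call ended without Luc 4, cFos 2, cFos 4 or cFos 12, with adjusted p up to 0.0789, and with no filter on low genes (0.0602).

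Psmb10, the trypsin-like immunosubunit, was at 41.8, 35.8, 12.3 and 17.9 FPKM in Luc 2, 4, 8 and 12 and at 7.81, 10.5, 6.03 and 5.12 in the cFos libraries. Luc 8 came close to cFos 4, which left the narrowest gap between arms among the immunosubunits. The mean fell from 26.9 ± 14.1 to 7.37 ± 2.39 FPKM, or -1.69 on the log2 scale with SE 0.39 (limma adjusted p = 0.0392). The Luc level was 5.35, 3.40, 2.03 and 3.50 times the cFos level in clones 2, 4, 8 and 12. The call held only without Luc 8 (0.0138) or Luc 12 (0.0473) and ended without each of the other 6 libraries, with adjusted p up to 0.101, and it also ended with no filter (0.0887).

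The constitutive catalytic subunits gave no call. Psmb5 was at 89.2, 103, 61.6 and 109 FPKM in Luc 2, 4, 8 and 12 and at 111, 90.3, 84.4 and 73.3 in the cFos libraries. The arms overlapped, and cFos was higher in clones 2 and 8 and lower in clones 4 and 12. The log2 difference was -0.0018 (95% interval -0.46 to 0.46, limma adjusted p = 0.998), and its sign turned under median scaling and quantile normalization. Psmb6 was at 122 ± 25.0 FPKM in Luc and 107 ± 20.3 in cFos, with a log2 difference of -0.18 (95% interval -0.61 to 0.25, limma adjusted p = 0.647). Psmb7, the most abundant of the 10 genes in both arms, was at 179 ± 42.2 and 163 ± 27.1, with a difference of -0.12 (-0.59 to 0.36, limma adjusted p = 0.810). None of these intervals reached the size of the falls of Psmb8, Psmb9 and Psmb10, and none of the 3 genes had an unadjusted p under 0.05, which 2247 of the 11162 genes had in either direction.

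Each immunosubunit was then set against the subunit it replaces, within each library, which tests whether they changed differently. The log2 ratio of Psmb8 to Psmb5 was -0.22, -0.60, -1.08 and -2.12 in Luc 2, 4, 8 and 12 and -3.51, -3.03, -3.82 and -3.71 in the cFos libraries. It was lower in cFos by a mean difference of -2.51 (SE 0.45). The ratio of Psmb9 to Psmb6 went from -2.67 ± 1.02 in Luc to -4.93 ± 0.57 in cFos (SD, n = 4), a difference of -2.26. The ratio of Psmb10 to Psmb7 went from -2.84 ± 0.63 to -4.41 ± 0.47, a difference of -1.57. The arms of each ratio did not overlap, and each ratio was lower in cFos in 4 of 4 clones. The immunosubunits alone had shown the same separation, so the ratios are not independent of those results. The share over other gene pairs was not computed. Each of the 3 ratios gave p = 0.0286 in an exact two-sided permutation test over 70 arrangements (0.0286 after Benjamini-Hochberg adjustment over the 3), the smallest value that 4 against 4 can give. With arms exchanged only within clones, the exact permutation p was 0.125, the smallest that 4 pairs can give.

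As a share of the transcripts of each pair, Psmb8 made up 46.2, 39.7, 31.97 and 18.5% of Psmb8 plus Psmb5 in Luc 2, 4, 8 and 12 and 7.74, 10.5, 6.15 and 6.55% in the cFos libraries. Psmb9 held 14.9 ± 8.75% of its pair in Luc and 2.92 ± 1.33% in cFos. Psmb10 held 12.7 ± 4.87% and 4.38 ± 1.31%. In Luc the order of the clones was 2, 4, 8 and 12 for each of the 3 pairs, from the highest share to the lowest. In cFos the order differed between the pairs. The 3 immunosubunits together made up 29.3% of the transcripts of the 6 catalytic subunits in Luc 2, 10.2% in Luc 12 and 3.41 to 6.10% in the cFos libraries. These are shares of transcripts, and assembled proteasomes were not measured.

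**Figure D2:**
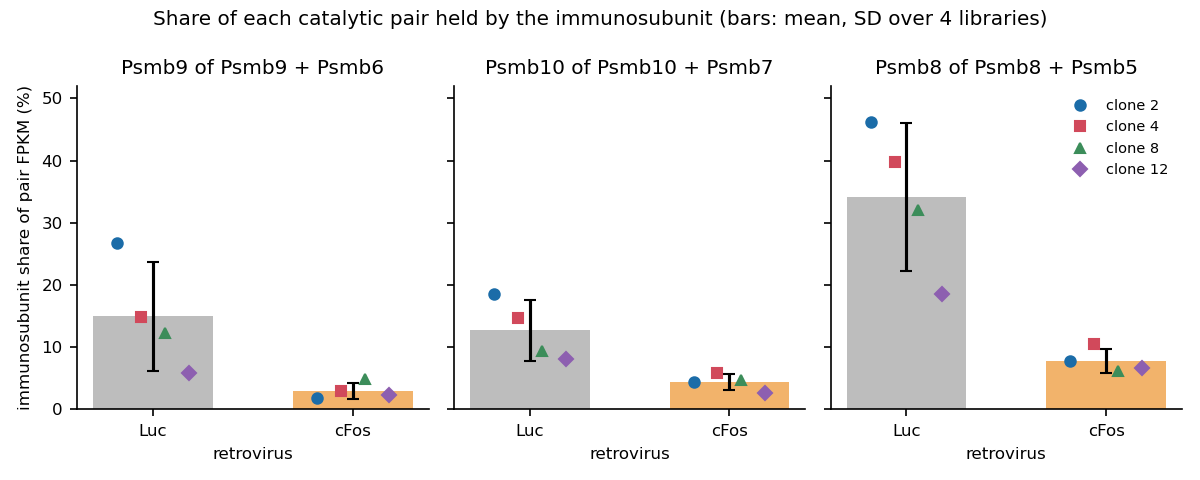
Share in percent of the summed FPKM of each catalytic pair that came from the immunosubunit, by retrovirus, with bars at the mean, error bars of 1 SD over 4 libraries and 1 symbol per clone. The Luc libraries hold 18.5 to 46.2% for Psmb8 and the cFos libraries 6.15 to 10.5%, and the Luc libraries spread more widely than the cFos libraries in each pair.

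Psme1 fell by less. It was at 111, 100.5, 78.7 and 77.9 FPKM in Luc 2, 4, 8 and 12 and at 64.8, 50.3, 44.6 and 48.7 in the cFos libraries, with little spread in either arm. The mean fell from 92.0 ± 16.4 to 52.1 ± 8.82 FPKM, or -0.81 on the log2 scale with SE 0.17 (limma adjusted p = 0.0259). The difference lay between -0.99 and -0.67 in every clone. The call ended without Luc 2, Luc 4, cFos 4, cFos 8 or cFos 12, with adjusted p up to 0.0784.

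The partners of Psme1 were read from a list of proteasome activators and the inhibitor Psmf1. Besides Psme1, none of the list's other 4 genes passed, while at an unadjusted p under 0.05 2 were lower and 1 higher. Psme2, the beta subunit of the same PA28 ring, was at 125 ± 18.8 FPKM in Luc and 81.3 ± 16.5 in cFos (log2 difference -0.62, limma adjusted p = 0.0664). With the clone as a block Psme2 fell (limma adjusted p = 0.0208), and it also passed without cFos 2. Psme1 was at 0.665 to 0.834 of the Psme2 level in Luc and 0.605 to 0.715 in cFos. Psme4, the nuclear activator PA200, was at 26.4 ± 3.63 and 39.5 ± 6.07 FPKM (limma adjusted p = 0.0622) and rose with the clone as a block (limma adjusted p = 0.0319). Psmf1 was at 10.05 ± 1.16 and 8.04 ± 0.301 FPKM (limma adjusted p = 0.217).

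Tap1 fell and its partner Tap2 gave no call. Tap1 was at 60.1, 27.9, 11.6 and 16.7 FPKM in Luc 2, 4, 8 and 12 and at 4.94, 4.85, 4.45 and 3.27 in the cFos libraries. Luc 2 stood well above the other Luc libraries, and the cFos libraries lay within 1.51 times of each other. The mean fell from 29.1 ± 21.8 to 4.38 ± 0.768 FPKM, or -2.34 on the log2 scale with SE 0.43 (limma adjusted p = 0.0170). The Luc level was 12.2, 5.76, 2.61 and 5.11 times the cFos level in clones 2, 4, 8 and 12. Without cFos 2 the adjusted p was 0.0558, and the call held without each of the other 7 libraries.

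Tap2 was at 26.6, 29.95, 13.2 and 14.4 FPKM in Luc 2, 4, 8 and 12 and at 20.2, 18.9, 13.7 and 7.09 in the cFos libraries. The arms overlapped, with cFos lower in clones 2, 4 and 12 and Luc 8 and cFos 8 nearly level. The log2 difference was -0.49 (95% interval -1.33 to 0.36, limma adjusted p = 0.522, and 0.152 with the clone as a block). Tap1 was at 0.881 to 2.26 times the level of Tap2 in Luc and at 0.244 to 0.462 times in cFos. Whether Tap1 and Tap2 differed in their response was not tested. Tap2 starts 3024 bases past the end of Psmb8. Psmb9 and Tap1, on either side of the shared start region, had a ratio of 0.475 to 1.11 in Luc and 0.449 to 1.06 in cFos.

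Tapbp was at 111, 102, 69.6 and 83.5 FPKM in Luc 2, 4, 8 and 12 and at 61.8, 59.4, 40.6 and 41.8 in the cFos libraries. Its arms were separated by less than the spread within either arm. The mean fell from 91.7 ± 18.7 to 50.9 ± 11.2 FPKM, or -0.85 on the log2 scale with SE 0.20 (limma adjusted p = 0.0442), and the difference lay between -0.99 and -0.77 in every clone. The call held without Luc 8 (0.0284) and ended without each of the other 7 libraries, with adjusted p up to 0.114, and also with no filter (0.0798), without the mean-variance trend (0.0527) or with the more abundant transcript alone (0.0501). Tapbp has 2 transcript entries of nearly the same length, and its level is their sum, as for every gene.

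Of the other genes of peptide loading and trimming, 1 of 5 tested fell and none rose, and the same 1 gene was lower at an unadjusted p under 0.05. It was Erap1, the aminopeptidase that trims peptides in the endoplasmic reticulum, at 20.3, 14.7, 10.7 and 10.7 FPKM in Luc 2, 4, 8 and 12 and at 5.77, 7.19, 7.29 and 6.02 in the cFos libraries (log2 fold change -1.005, limma adjusted p = 0.0280). The arms of Erap1 did not overlap, and its call ended without Luc 4, cFos 2, cFos 4, cFos 8 or cFos 12. Calr, the chaperone calreticulin, was at 791 ± 175 and 591 ± 74.4 FPKM (limma adjusted p = 0.254), Canx, calnexin, at 145 ± 29.1 and 176 ± 13.2 (0.338), and the tapasin-related Tapbpl at 9.17 ± 2.19 and 6.68 ± 2.96 (0.402). The median log2 difference of these 5 genes was -0.40. Of 8 cytosolic peptidases none passed, with 1 lower and 1 higher at an unadjusted p under 0.05 and a median of -0.08. Blmh, bleomycin hydrolase, was at 21.1 ± 3.05 and 14.7 ± 2.54 FPKM, Npepps, the puromycin-sensitive aminopeptidase, at 24.8 ± 6.18 and 33.8 ± 4.59, and Tpp2 at 27.0 ± 1.46 and 24.7 ± 1.86.

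With all 8 libraries, the rest of the proteasome gave no call in either direction. None of 11 other core subunits passed, with a median log2 difference of -0.09 and a range of -0.19 to 0.08. Psmb2 was at 138 ± 15.9 FPKM in Luc and 124 ± 10.4 in cFos, Psma4 at 151 ± 26.2 and 133 ± 9.12, and Psma2 at 160.0 ± 35.5 and 139 ± 18.4. None of 18 genes of the regulatory particle that feeds the core passed, with a median of -0.14 and a range of -0.31 to 0.36. Psmd11 was at 63.0 ± 15.4 and 79.3 ± 8.31 FPKM, Psmc3 at 122 ± 25.1 and 102 ± 12.4, and Psmd3 at 71.3 ± 19.3 and 56.5 ± 10.96. None of 8 assembly chaperones passed (median -0.08), among them Psmg4, at 18.9 ± 7.02 and 11.8 ± 2.11 FPKM, Psmd5, at 38.2 ± 7.44 and 49.5 ± 8.64, and Psmd9, at 10.3 ± 1.03 and 8.91 ± 1.75. These counts were the same with the clone as a block, and no gene of the 3 lists had an unadjusted p under 0.05. Psmg4 passed when Luc 8 was left out (limma adjusted p = 0.0333). Pomp, also of the assembly chaperones, was at 143 ± 26.7 and 133 ± 16.05 FPKM. The tissue-restricted Psmb11 of thymic epithelium reached at most 0.03 FPKM, and Psma8 of germ cells was listed at 0 in 5 libraries and at 7.93 FPKM in Luc 2, and neither was tested.

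Regulators of these genes were read from 2 more lists. Of 11 transcription factors linked to class I antigen processing, 4 fell, 7 did not pass and none rose, with a median log2 difference of -0.51. Nlrc5, the class I transactivator, was at 19.7, 6.49, 2.08 and 3.35 FPKM in Luc 2, 4, 8 and 12 and at 0.356, 0.825, 0.572 and 0.517 in the cFos libraries. The arms did not overlap, and Luc 2 stood above the other Luc libraries as it did for Tap1. Nlrc5 fell with a log2 fold change of -2.54 (limma adjusted p = 0.0324), and its call was lost when Luc 4, cFos 2, cFos 4, cFos 8 or cFos 12 was left out. It reached 1 FPKM in every Luc library and in no cFos library, so it passed the filter through the Luc arm alone. Its cFos levels lie near the added 0.5 FPKM, so the size of its fall depends on that value. Stat2, which relays interferon signals, fell from 33.1 ± 24.7 FPKM in Luc to 4.57 ± 0.905 in cFos (limma adjusted p = 0.0167). Its partner Irf9 fell too, from 31.6 ± 11.3 to 7.24 ± 0.784 FPKM (limma adjusted p = 0.00284). Stat2 lost its call without cFos 2 or cFos 4. Irf1, which binds the Psmb9 and Tap1 start region in other cells, was at 22.8 ± 7.07 and 13.4 ± 2.41 FPKM (limma adjusted p = 0.129, and 0.0228 with the clone as a block, where it fell). Irf2 was at 20.2 ± 5.65 and 13.6 ± 0.702 FPKM and Rfxank at 3.62 ± 0.307 and 2.74 ± 0.420. Irf1 also passed without Luc 8 (limma adjusted p = 0.0489), and Irf2 passed without Luc 12 (limma adjusted p = 0.0308). Of 4 factors that control proteasome genes in general none passed, with 1 higher at an unadjusted p under 0.05. Nfe2l1 was at 67.7 ± 11.7 and 85.1 ± 12.7 FPKM, Nfe2l2 at 33.9 ± 3.11 and 43.5 ± 8.12, and Ddi2 at 14.7 ± 1.56 and 13.6 ± 1.38. Of 9 control genes none passed, with 1 lower at an unadjusted p under 0.05, and Actb was at 1565 ± 269 and 1172 ± 59.1 FPKM and Gapdh at 1663 ± 651 and 2164 ± 349. Actb passed when Luc 8 was left out (limma adjusted p = 0.0432).

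**Figure D3:**
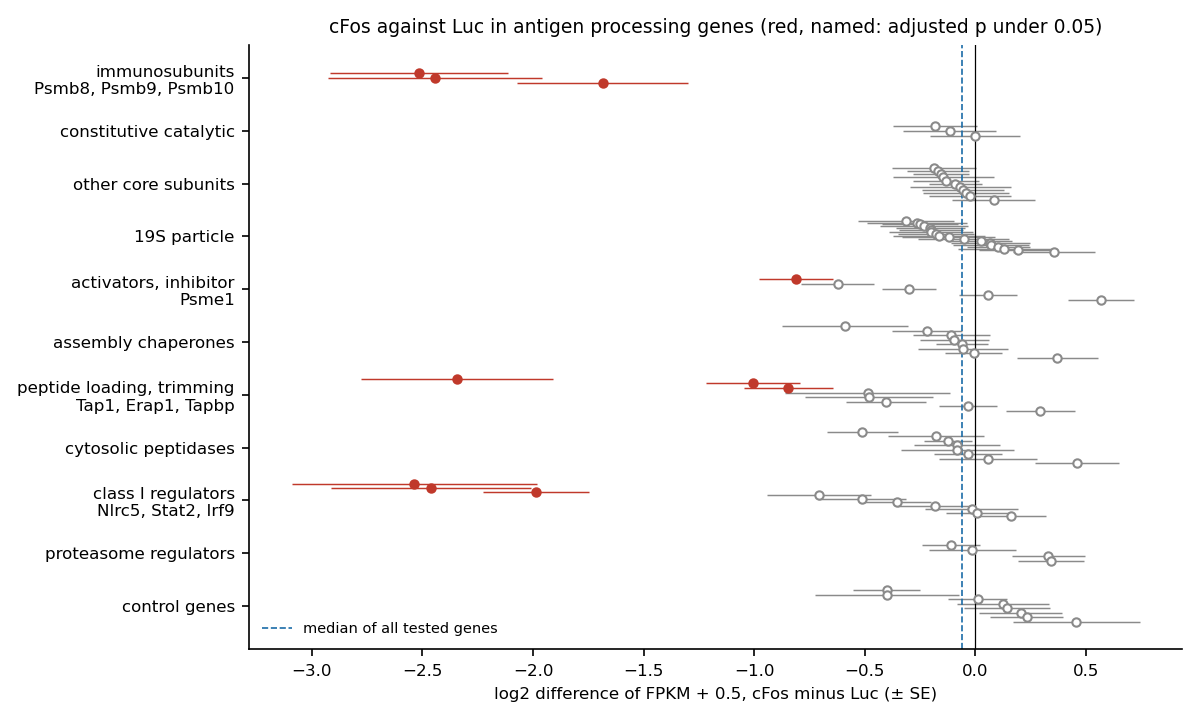
Log2 difference of FPKM plus 0.5 between cFos and Luc (points, with SE) for the tested genes of 11 lists, less those not reported here, with the median of all tested genes dashed and called genes in red and named. The immunosubunits lie between -2.51 and -1.69, the constitutive catalytic subunits between -0.18 and -0.0018 and the regulatory particle between -0.31 and 0.36.

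The immunosubunits and Tap1 ranged more widely between clones in Luc than in cFos. The highest Luc library was 3.09 times the lowest for Psmb8, 3.41 times for Psmb10, 5.17 times for Tap1 and 5.35 times for Psmb9, against 1.65 to 1.78 times for Psmb5, Psmb6 and Psmb7. In cFos the same ratio was 1.51 for Tap1 and 2.06 to 2.36 for the immunosubunits. Tap2 ranged more widely in cFos, at 2.85 against 2.27 times in Luc, and Psme1 and Tapbp spanned 1.42 to 1.60 times in either arm. The median log2 difference over the 6 genes that fell was -2.66, -2.06, -1.13 and -1.73 in clones 2, 4, 8 and 12. These 6 were picked by their fall in the same libraries. Over all 10 genes the median was -0.81, -0.89, -0.79 and -0.98 in clones 2, 4, 8 and 12. With 1 library per clone and arm, a difference in response between clones cannot be tested. A limma F test of clone differences over both arms called none of the 10 genes, while 0.484% of all genes were called. At an unadjusted p under 0.05 there were 5 of the 10, Psmb7, Psmb8, Psmb10, Tap2 and Tapbp, against 16.5% of all genes, and the smallest adjusted p was that of Psmb8 (0.107).

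The order of mean levels changed between the arms. In Luc it ran from Psmb7 and Psmb6 through Psme1, Tapbp and Psmb5, which lay between 90.9 and 92.0 FPKM, to Psmb8 at 49.6 and then Tap1, Psmb10, Psmb9 and Tap2, which lay between 21.0 and 29.1. The ranges of neighbours in this order overlapped over the 4 Luc libraries. Within single libraries, Psmb7 was above Psmb6, Psmb6 above Psme1, Psmb5 above Psmb8 and Psmb8 above Tap1 in 4 of 4, while the other neighbours changed order between libraries. In cFos Psmb5 stood above Psme1 and Tapbp, and Tap2, last in Luc, stood at 15.0 ± 5.98 FPKM above Psmb8 and Psmb10, at 7.64 and 7.37, and above Tap1 and Psmb9. In cFos the libraries of neighbouring genes did not overlap between Psmb5 and Psme1, between Tapbp and Tap2 and between Psmb10 and Tap1.

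Within a library the half-width of the authors' confidence limits was at most 3.33% of the estimate for Psmb7, 14.9% for Psmb8, 14.6% for Psmb10 and 30.7% for Psmb9. For the 8 genes with 1 transcript, the authors' confidence limits of cFos lay below those of Luc in 26 of 32 comparisons within clones. They lay above in 3 and overlapped in 3, and for Psmb8, Psmb9, Psmb10 and Psme1 they lay below in all 4 clones. Genes without a call separated often too. The cFos limits lay below in 2 clones and above in 2 for Psmb5, and below in 2 and above in 1 for Psmb6. For Psmb7 and Tap2 they lay below in 3 clones. The share over all transcripts was not computed. These limits cover the estimate in 1 library and not the spread between cultures. Of the 2 Tap1 entries, the longer made up 91.3 to 99.5% of the level. The 2 Tapbp entries, 2750 and 2747 bases long, shared the level at 40.3 to 47.3% for the longer, in both arms.

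**Figure D4:**
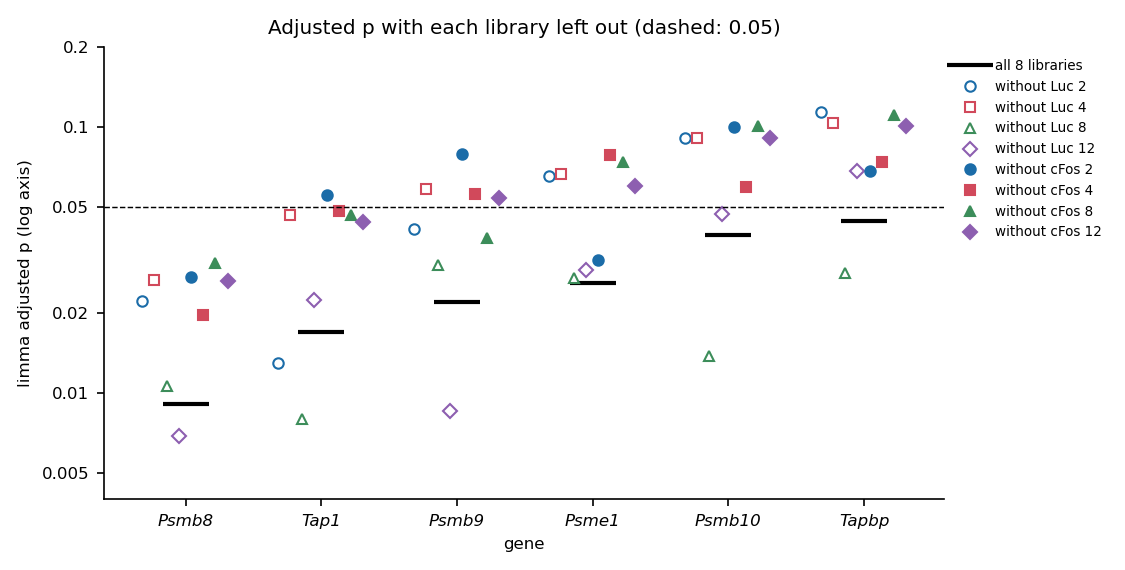
Limma adjusted p on a log axis of the 6 genes that fell, with all 8 libraries (black bars) and with each library left out (open symbols for Luc, filled for cFos), over the same genes, with a dashed line at 0.05. Psmb8 stays below 0.05 throughout, up to 0.0309. Tapbp lies below 0.05 with all 8 libraries and, of the fits with a library left out, only without Luc 8.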

How the data were processed

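Polyadenylated RNA of 8 libraries, 4 Luc and 4 cFos, was compared. Reads went through CASAVA 1.8.2, TopHat and Cufflinks on build mm9, per the submitters' processing notes. Versions and options of TopHat and Cufflinks and the annotation were not given in the sources used here. The deposited tables, per the file headers, hold FPKM with confidence limits and a coverage signal (mean depth per base) for each RefSeq transcript. The authors' FPKM are model estimates, and no scaling between libraries is recorded. Coverage times length gave the depth, and no read counts are held, so no counting interval was computed.

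Transcripts were named from RefSeq (30223 entries) or GENCODE M21 (184), used for names alone, and FPKM was summed per symbol. A status other than OK removed 3 genes, none a member. Arms were compared by limma 3.58.1 (R 4.3.3) with a trend of variance on mean level. The scale was log2(FPKM + 0.5), which understates changes of low genes, for genes reaching 1 FPKM in 4 or more libraries, two-sided, with Benjamini-Hochberg adjusted p under 0.05. The rest used numpy 2.4.6, pandas 2.3.3 and matplotlib 3.10.9 under Python 3.11.15. The code was tested on simulated data. The p-values rest on these 4 clones only, with clone, culture and library spread mixed, and limma also draws on the variance of all genes. In the blocked fit and the clone test the error is what remains after arm and clone.

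The clone number pairs the libraries, as both libraries of a number are of 1 line. Within clones 2, 4, 8 and 12 the correlation of deviations from arm means was 0.174, 0.593, 0.349 and 0.437, so a blocked fit stands beside the unblocked one. Alternatives were another pseudocount, filter, scaling, transcript choice, no trend, the block and each library left out.

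The members and lists were chosen with earlier results of these data known. Named genes are the 10 members, list genes that passed, up to 3 further genes per list by lowest adjusted p, and the 3 genes most correlated with each of 5 members. Some genes that the rule would name are counted in their lists but not reported here by name. Psmb11, Psma8, Pomp, the markers given and the partner ratios without a test were chosen after their values were seen.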

Additional observations from a re-analysis of the deposited data

How the results depend on the processing

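Psmb8 kept its call under all 17 alternatives, and Psmb9, Psmb10, Psme1, Tap1 and Tapbp kept their direction under all of them. The number of members called lower was 6 of 10, 2 to 6 with 1 library left out, 3 with no filter on low genes (Psmb8, Psme1 and Tap1, as Psmb9, Psmb10 and Tapbp had adjusted p = 0.0602, 0.0887 and 0.0798), and 5 without the trend or with the top transcript. None was called higher under any of them (0 with each library left out). With the replicate block no member changed its call, and of the other named genes Psme2, Psme4 and Irf1 gained one. The block gave 503 higher and 478 lower over all genes, against 326 and 293. Median scaling gave 400 and 245 and quantile normalization 381 and 274, so the lower share of calls went from 47.3% to 38.0% and 41.8%. With no filter, 175 genes were lower. With 1 library left out, 150 to 319 were higher and 85 to 295 lower, the fewest of both without cFos 2. The log2 difference of Psmb5 turned sign under median scaling (0.061) and quantile normalization (0.013) and ran from -0.18 to 0.098 with 1 library left out, and that of Psmb7 from -0.30 to 0.0092. Under the replicate block the ratios of Psmb9 to Psmb6 (-2.26), Psmb10 to Psmb7 (-1.57) and Psmb8 to Psmb5 (-2.51) had p = 0.125 (exact permutation, its smallest possible value). With 1 library left out they ran from -2.68 to -1.85, -1.79 to -1.33 and -2.89 to -2.25, with exact permutation adjusted p of 0.0286 to 0.0571, over fewer arrangements. The clone test called 54 genes, 0 with no filter, 6 at a minimum of 5 FPKM and 0 to 115 with 1 library left out, and no member in any of these. Where no value shows it, the cause was not tested.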

Other observations

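The genes with the pattern most like that of 5 members were ranked by Pearson's r of log2(FPKM + 0.5) over the 8 libraries, as a description, since the arms stand apart and the libraries and their depth are shared. For Tap1 the closest were Nmi (r = 0.998), Dtx3l (0.994) and Phf11d (0.993), all genes known to respond to interferon, which fell in cFos with log2 fold changes of -1.91, -1.93 and -3.60. For Psmb8 they were the class I heavy chain gene H2-K1 (0.990), which fell from 325 ± 217 to 39.1 ± 9.84 FPKM, then Med22 (0.987), with a log2 difference of -0.46 that did not pass (limma adjusted p = 0.0584), and Trim30a (0.984), which fell. For Psmb9 they were Erap1 (0.987), Hnrnph2 (0.985) and Uba7 (0.985), the enzyme that activates ISG15. Erap1 and Uba7 fell, and Hnrnph2 did not pass (log2 difference -0.23, limma adjusted p = 0.282). For Psmb10 they were Gm11127 (0.984), Cmpk2 (0.983) and Gtf3c6 (0.978). Gtf3c6 fell, while Gm11127 (log2 difference -0.81, limma adjusted p = 0.146) and Cmpk2 (-2.42, limma adjusted p = 0.0606) did not pass. For Psmb5, a constitutive subunit, they were Nans (0.953), Zfp64 (0.953) and Ndufs8 (0.951), with log2 differences of -0.02, -0.0021 and -0.07 and limma adjusted p of 0.974, 0.997 and 0.883.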
